A study of Mus musculus with 20 samples.

Results

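The 35 genes described here encode lysosomal enzymes and membrane proteins and were followed in mouse liver: 10 cathepsins and related peptidases, 10 glycosidases, 3 sulfatases, 7 lipid hydrolases and activators, and 5 membrane proteins. They are a list of gene symbols out of 55487 rows in the count table. The rule that names them holds no measured value, but the list was chosen with earlier results of these data known. All 35 were found in both deposited tables and all 35 passed the filter on low counts, with at least 75 counts in every library. The animals were female C57BL/6N mice 15 weeks old, either Plin2-null or Plin2+/+, and either fasted for 24 h or fed chow. PLIN2 (perilipin 2) is a protein on the surface of cytosolic lipid droplets. The groups were Plin2-null fasted, Plin2-null fed, Plin2+/+ fasted and Plin2+/+ fed, with 5 libraries of whole liver RNA each. For 10 libraries the labels name only the feeding state; since the design has 2 genotypes and the other 10 are labelled Plin2+/+, these were taken as Plin2-/-. The sources used here do not give the allele.

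Lysosomes are acidic compartments that break down material delivered by endocytosis and autophagy. Their hydrolases are made in the endoplasmic reticulum, tagged with mannose 6-phosphate in the Golgi and sorted to the lysosome, and the proton pump called V-ATPase keeps the lumen acid. In the liver, fasting is known for raising autophagy, which feeds glycogen, protein and lipid droplets to these enzymes. Transcription factors of the TFEB family bind a promoter element called CLEAR that many lysosomal genes carry.

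Library totals lay between 25506471 and 65579038 counts, and the test covered 16312 genes. Feeding state separated the libraries on the first principal component, which held 49.4% of the variance, and replicate 3 of the Plin2+/+ fasted group lay farthest out on it. Without that library the fasting counts given below for Plin2+/+ livers were 13 higher and 7 lower of the 35 genes. Plin2 averaged 90.5 ± 22.6 CPM (read count over library size, scaled by TMM factors) in Plin2-null fasted and 1494 ± 240.1 in Plin2+/+ fasted livers (SD, n = 5 each; exact two-sided permutation p = 0.00794, the smallest that 5 against 5 can give). Plin2 in the fed groups averaged 19.7 ± 6.96 CPM in Plin2-null and 260 ± 58.2 CPM in Plin2+/+ livers (exact two-sided permutation p = 0.00794). Plin2 RNA rose after fasting in both genotypes, 4.59-fold in Plin2-null and 5.74-fold in Plin2+/+ livers (edgeR adjusted p = 6.32e-08 and 8.26e-09). The hepatocyte markers Alb, Ttr, Apob, Hnf4a, Asgr1 and Cps1 were above 0 in all 20 libraries. Each library title holds its own number, but no label says that the numbers are animals, and none gives a batch or a day. Counts of livers in this text are therefore counts of libraries. The p-values measure only the spread between these samples, which may be technical.

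Promoters were examined for the element named above because it is the feature that lysosomal genes are known to share. The RefSeq promoter table (GRCm38.p6) gives 250 bases before to 50 after each gene's start, and 32 of the 35 genes matched. Ctsb, Ctsh and Asah1 were not matched. The letters GTCACGTG, the core of the CLEAR element, were searched on both strands and stood in the promoters of 8 of the 32 genes (25.0%), against 689 of 27025 genes with a promoter in the table (2.55%). Those 8 were Arsa, Ctsa, Ctsd, Gla, Glb1, Lamp1, Mcoln1 and Naglu. The shorter letters CACGTG, which are contained in the first motif, stood in 11 of the 32 (34.4%), against 2187 of 27025 (8.09%), and added Ctsf, Ctsl and Gaa. A match describes letters and not a bound site. Stretches before the RefSeq start are printed for these genes so that the motif can be set beside the changes reported below, with the motifs in capitals and each sequence 5′ to 3′ on the gene's strand. CACGTGAC is the first motif read on the other strand. A further Ctsa match after the RefSeq start is not printed. RefSeq starts differ from those of GENCODE M21 (GRCm38): there the Ctsl and Ctsa stretches lie within the gene. Those of Naglu, Mcoln1, Ctsd and Arsa reach past the GENCODE start into the gene.
Ctsd, chr7:142387898-142388077, minus strand: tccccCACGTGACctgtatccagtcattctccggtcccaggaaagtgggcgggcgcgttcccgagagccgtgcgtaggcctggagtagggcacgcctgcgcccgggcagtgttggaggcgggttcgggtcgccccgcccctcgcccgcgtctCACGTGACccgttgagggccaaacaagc
Ctsa, chr2:164833739-164833772, plus strand: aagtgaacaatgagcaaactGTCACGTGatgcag
Lamp1, chr8:13159080-13159160, plus strand: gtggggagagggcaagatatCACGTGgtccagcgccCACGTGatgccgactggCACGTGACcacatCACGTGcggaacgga
Mcoln1, chr8:3500426-3500501, plus strand: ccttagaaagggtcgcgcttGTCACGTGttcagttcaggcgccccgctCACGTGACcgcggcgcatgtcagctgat
Arsa, chr15:89477425-89477462, minus strand: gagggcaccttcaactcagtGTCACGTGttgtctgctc
Gla, chrX:134601174-134601252, minus strand: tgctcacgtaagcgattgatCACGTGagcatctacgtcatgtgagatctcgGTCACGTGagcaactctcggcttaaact
Glb1, chr9:114401008-114401055, plus strand: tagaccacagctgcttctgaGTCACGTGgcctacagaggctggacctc
Naglu, chr11:101069999-101070046, plus strand: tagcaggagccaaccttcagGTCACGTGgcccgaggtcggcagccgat
Ctsl, chr13:64370731-64370770, minus strand: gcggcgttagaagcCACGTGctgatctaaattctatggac
Gaa, chr11:119267803-119267848, plus strand: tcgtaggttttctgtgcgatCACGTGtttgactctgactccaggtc
Ctsf, chr19:4855066-4855111, plus strand: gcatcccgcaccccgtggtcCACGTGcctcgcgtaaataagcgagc

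Levels between genes were compared on the authors' TPM values, which are scaled for gene length. The 35 genes spanned more than 2 orders of magnitude. Psap, the precursor of the saposins that help glycosphingolipid hydrolases reach their substrates, was the most abundant, with a mean of 437 TPM over the 20 libraries. Ctsl (341 TPM), Lamp1 (318), Ctsz (238), Grn (194) and Ctsb (189) came next. Cd63 (1.99 TPM) and Galc (1.11 TPM) were the lowest in every group. The order moved with feeding: Ctsl averaged 534 TPM in Plin2+/+ fasted livers and stood at rank 1 there, against 251 TPM and rank 3 in Plin2+/+ fed livers. Grn stood at rank 5 in both fasted groups, against ranks 9 and 8 in Plin2-null fed and Plin2+/+ fed livers. Ctsb went the other way, at rank 8 in both fasted groups and rank 4 in both fed groups. Together the 35 genes made up 0.301 ± 0.0508% of all TPM in Plin2-null fasted, 0.274 ± 0.0216% in Plin2-null fed, 0.319 ± 0.0249% in Plin2+/+ fasted and 0.270 ± 0.0114% in Plin2+/+ fed livers (SD, n = 5 each).

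**Figure D1:**
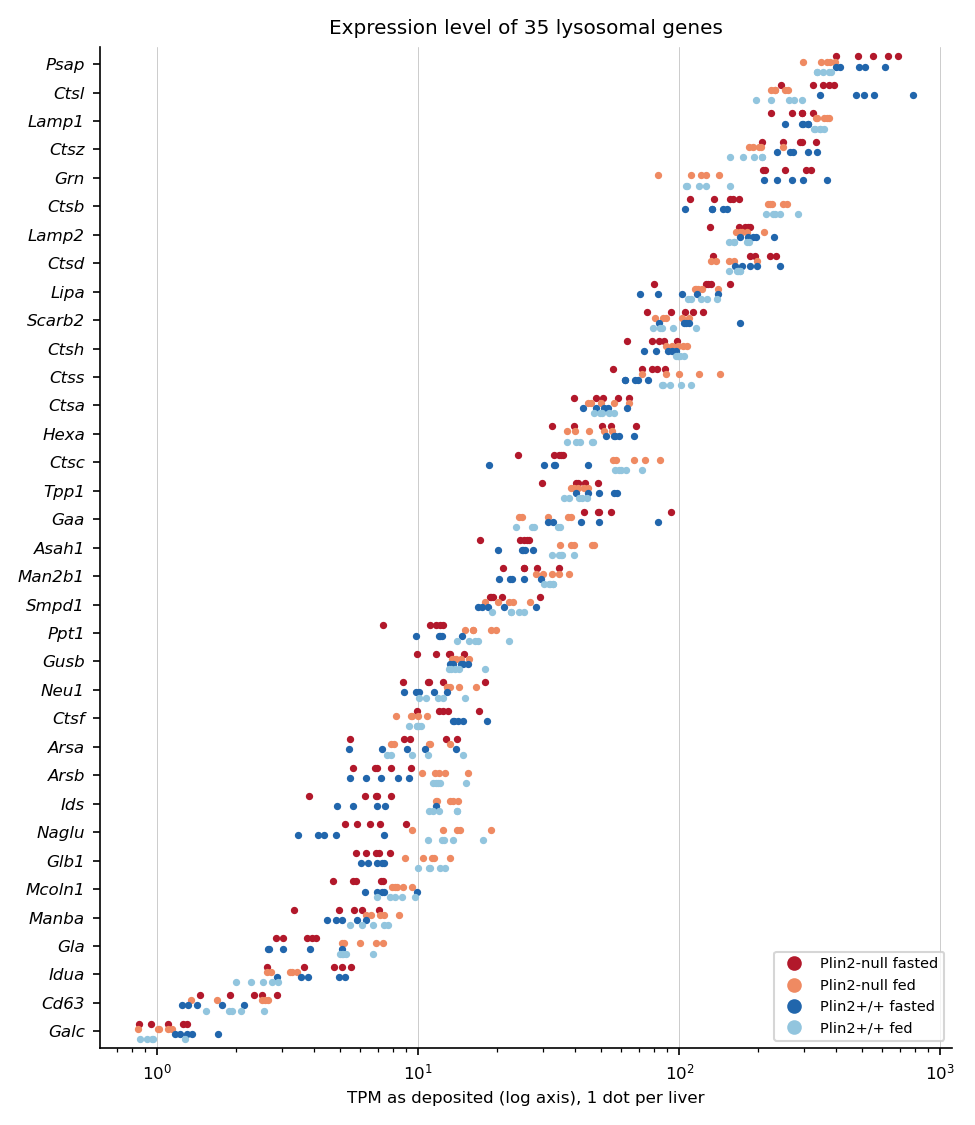
TPM of each of the 35 genes as deposited, on a log axis, with 1 dot per liver and the 4 groups in colour. Genes are ordered by their mean over 20 libraries, from Psap (437 TPM) at the top to Galc (1.11 TPM), and the spread within a gene is small beside the distance between the ends.

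The first question was how these genes respond to fasting in each genotype. The response was split: many of the genes rose while others of the same classes fell. In Plin2-null livers 14 of the 35 genes rose and 9 fell, at an adjusted p under 0.05 (edgeR quasi-likelihood fit, Benjamini-Hochberg over all genes tested). Of all 16312 genes, 36.1% were called, 18.0% higher and 18.1% lower. In Plin2+/+ livers 13 rose and 10 fell, where 42.6% of all genes were called, 20.9% higher and 21.7% lower. The share of the 35 genes called, 65.7% in each genotype, was thus above that of all genes. The background holds genes with lower counts, where a change is harder to call. With a stricter filter (at least 1 CPM in 5 libraries) 13034 genes remained and the calls of the 35 were the same. Of these 13034 genes, 2641 rose and 2676 fell in Plin2-null, and 3021 rose and 3130 fell in Plin2+/+ livers. Since the list was chosen with earlier results of these data known, the comparison is descriptive. The libraries of the fasted and fed groups did not overlap for 11 higher and 8 lower genes in Plin2-null livers, against 12.6% and 11.8% of all genes. In Plin2+/+ livers this held for 10 higher and 8 lower genes, against 13.2% and 13.5%. The median log2 fold change of the 35 genes was 0.20 in Plin2-null and 0.00 in Plin2+/+ livers, and -0.01 over all genes in each.

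The direction split depended on the scaling. With library size alone in place of TMM, all genes together shifted to a median log2 fold change of -0.21 in Plin2-null and -0.16 in Plin2+/+ livers. Then 8 of the 35 genes rose and 12 fell in Plin2-null livers, and 10 rose and 11 fell in Plin2+/+ livers. Of all 16312 genes, 1376 rose and 4243 fell in Plin2-null, and 1854 rose and 4173 fell in Plin2+/+ livers under that scaling. On the authors' TPM values (limma on log2(TPM + 1)), 6 of the 35 rose and 12 fell in Plin2-null livers, and 7 rose and 11 fell in Plin2+/+ livers. Of all 15996 genes tested on TPM, 1014 rose and 4566 fell in Plin2-null, and 1567 rose and 3623 fell in Plin2+/+ livers. The changes below are therefore relative to the bulk of the genes in each library, as TMM sets it. In bulk tissue, fewer cells of a type and less RNA per cell cannot be told apart.

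The 2 fasting comparisons share no library. In both genotypes 12 genes rose: Ctsd, Ctsf, Ctsl, Ctsz, Tpp1, Gaa, Hexa, Idua, Galc, Psap, Grn and Scarb2. The 9 that fell in both were Ctsb, Ctsc, Gla, Glb1, Naglu, Ids, Arsb, Asah1 and Ppt1. No gene of the 35 was called in opposite directions, which was also rare over all genes tested (0.0613%). The sign of the log2 fold change was the same in both genotypes for 28 of the 35 genes (80%), close to the 76.8% of all genes tested, and 21 (60%) were called in the same direction in both, against 25.8% of all genes. Of the 8 genes whose promoter holds GTCACGTG, Ctsd rose in both genotypes, Gla, Glb1 and Naglu fell in both, Ctsa rose in Plin2-null livers, and Arsa, Lamp1 and Mcoln1 were called in neither.

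**Figure D2:**
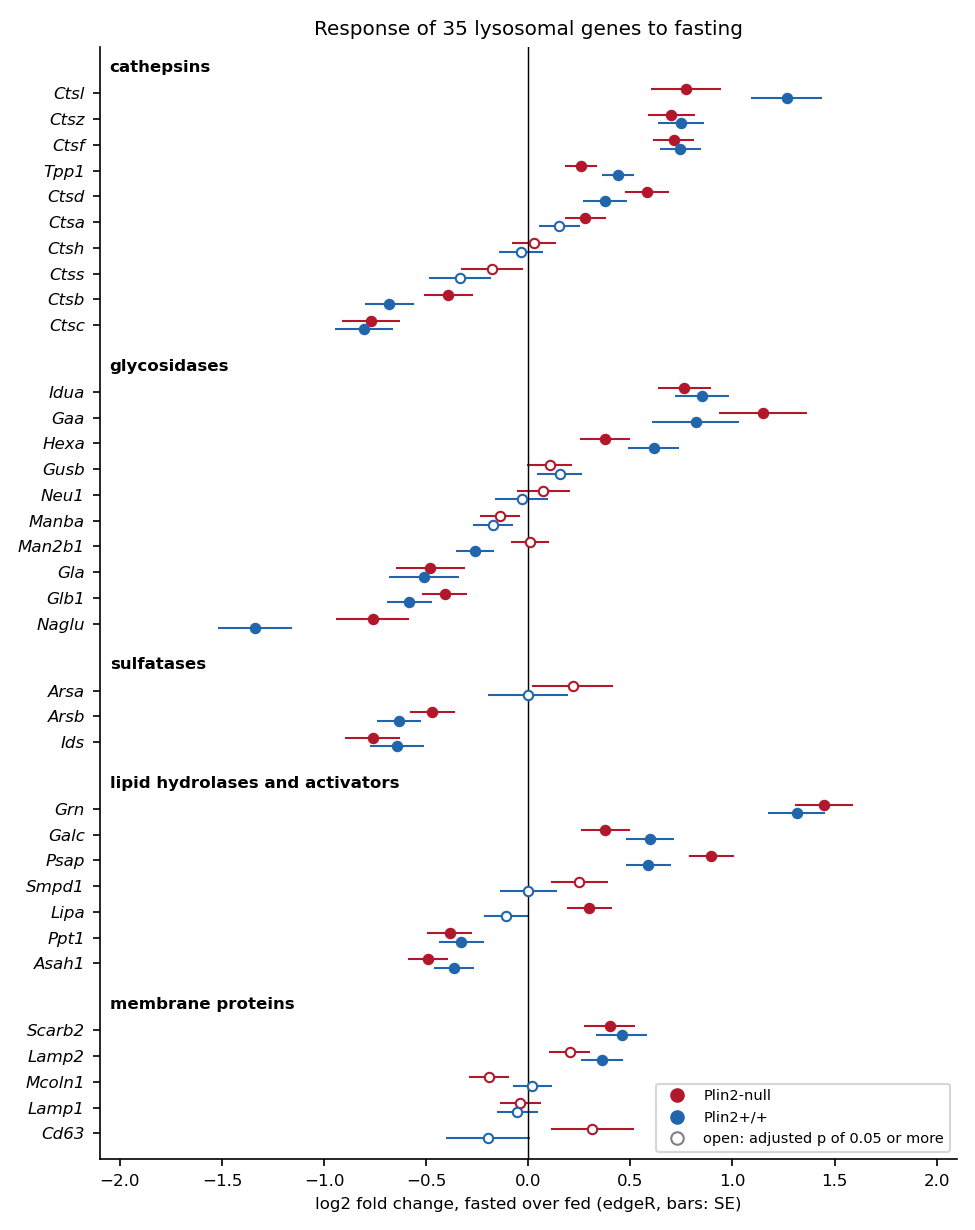
Log2 fold change of each gene, fasted over fed, from edgeR with its SE, with Plin2-null above Plin2+/+ in each row and genes grouped by class. Filled points passed an adjusted p under 0.05. Cathepsins, glycosidases and lipid hydrolases hold called genes on both sides of 0, the 3 sulfatases only on the lower side and the 5 membrane proteins only on the higher side.

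**Figure D3:**
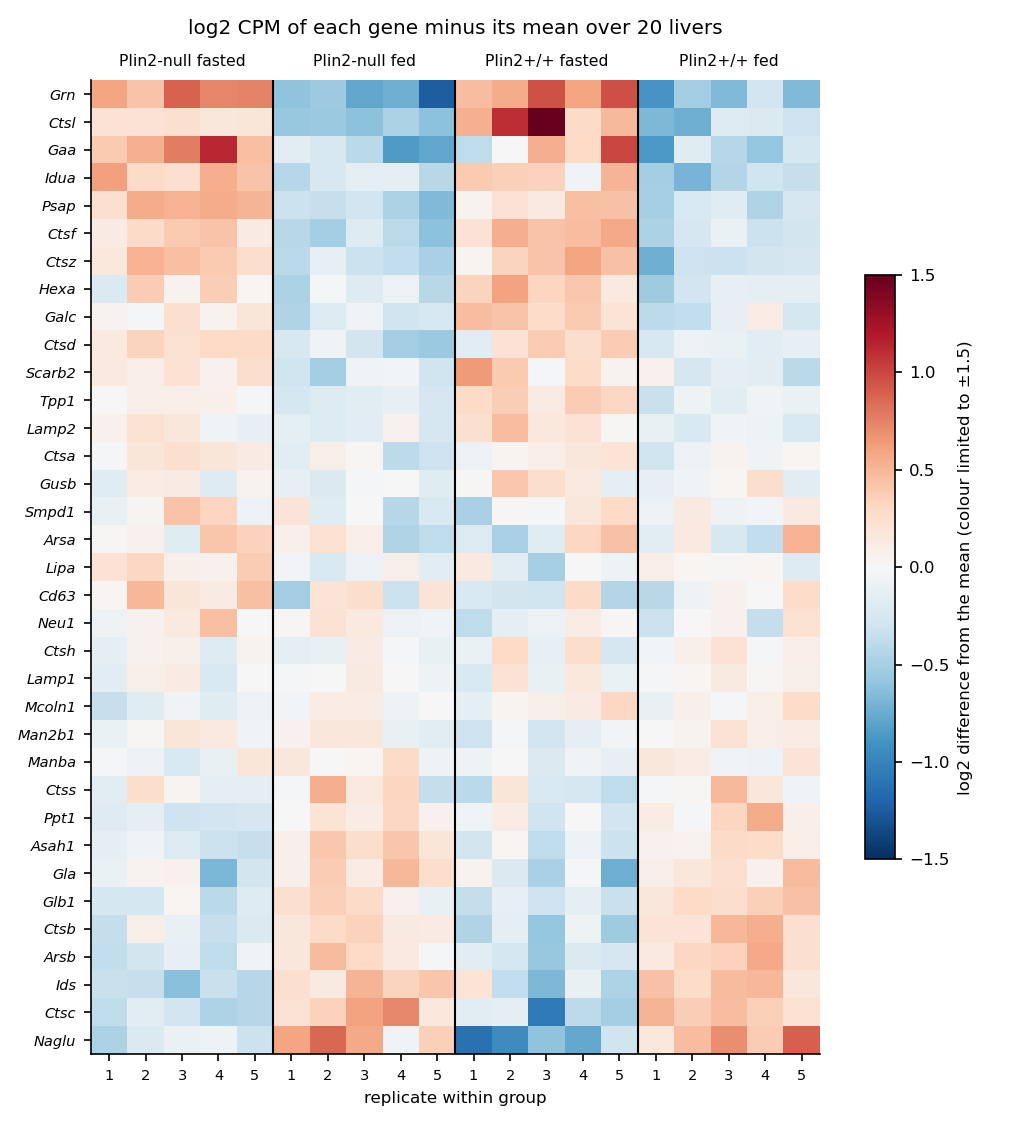
Log2 CPM of each gene in each of the 20 livers, minus the gene's mean over all livers, ordered by the mean of the fasting log2 fold changes in Plin2-null and Plin2+/+ livers, highest at the top. The change of sign between fasted and fed columns is visible in both genotypes for Grn, Ctsl and Idua near the top and for Naglu, Ctsc and Ids at the bottom.

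Among the cathepsins, the proteases that digest delivered protein, 6 rose and 2 fell of 10 in Plin2-null livers, and 5 rose and 2 fell in Plin2+/+ livers. On TPM 3 rose and 3 fell in each genotype. Beside these and the class counts below, 18.0% of all genes rose and 18.1% fell in Plin2-null livers. For Plin2+/+ livers the shares were 20.9% and 21.7%. On TPM 1014 of 15996 genes rose and 4566 fell in Plin2-null, and 1567 rose and 3623 fell in Plin2+/+ livers. Ctsl encodes cathepsin L, a cysteine endopeptidase, and is annotated on chromosome 13 from 64359337 to 64370890 (minus strand) in GENCODE M21 (GRCm38). It had 957, 958, 970.0, 923 and 932 CPM in fasted Plin2-null livers, against 552, 559, 537, 589 and 538 CPM in fed Plin2-null livers. Ctsl in fasted Plin2+/+ livers was 1189.7, 1774, 2333, 1004 and 1155 CPM, against 516, 494, 719.9, 707 and 665 CPM in fed Plin2+/+ livers. Every fasted library was above every fed one in both genotypes, and the fasted Plin2+/+ libraries were far more spread than the fasted Plin2-null ones. The log2 fold change of Ctsl was 0.77 ± 0.17 (SE, edgeR adjusted p = 0.00135) in Plin2-null and 1.27 ± 0.17 (adjusted p = 5.35e-06) in Plin2+/+ livers, 1.71-fold and 2.40-fold higher after fasting.

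Ctsz, cathepsin Z, a carboxypeptidase, had 149, 192, 183, 175 and 160.1 CPM in fasted Plin2-null livers, against 101, 122, 107, 103 and 95.2 CPM in fed ones. For Plin2+/+ the Ctsz values were 137, 168, 179, 201 and 181 CPM after fasting, against 80.0, 107, 106, 109.8 and 112 CPM in the fed state. The fasted and fed libraries did not overlap in either genotype, and the changes were 0.70 ± 0.11 and 0.75 ± 0.11 on the log2 scale (SE, edgeR adjusted p = 4.7e-05 in Plin2-null and 1.64e-05 in Plin2+/+). Ctsf, a further cysteine protease, had 25.2, 28.4, 30.5, 31.2 and 25.1 CPM in fasted Plin2-null livers, against 17.2, 16.1, 20.1, 17.4 and 14.9 CPM in fed ones. In Plin2+/+ mice Ctsf had 26.9, 33.9, 31.3, 32.1 and 34.4 CPM after fasting, against 16.5, 19.3, 21.6, 18.4 and 19.0 CPM when fed. No library overlapped between feeding states, and the log2 changes were 0.71 ± 0.10 in Plin2-null and 0.74 ± 0.10 in Plin2+/+ livers (SE, edgeR adjusted p = 1.13e-05 and 4.71e-06). Ctsz shares its locus with Nelfcd on the other strand, whose counts were 16.7% of its own. Nelfcd rose in Plin2-null livers (log2 0.51, edgeR adjusted p = 0.00718) and was not called in Plin2+/+ livers (0.17). Its part in the rise of Ctsz was not tested.

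Ctsd, the main aspartic protease, averaged 196 ± 9.70 CPM in fasted and 131 ± 19.3 CPM in fed Plin2-null livers (SD, n = 5 each), a log2 change of 0.58 ± 0.11 (SE). Its change in Plin2+/+ livers was 0.37 ± 0.11, from 192 ± 27.3 CPM fasted and 148 ± 6.66 CPM fed (SD, n = 5 each), with overlap between the libraries there. On TPM the Ctsd calls were lost in both genotypes. Tpp1, tripeptidyl peptidase 1, rose by 0.26 ± 0.08 in Plin2-null and 0.44 ± 0.08 in Plin2+/+ livers (log2, SE), but on TPM its change in Plin2-null livers turned to -0.037 and passed no test. Ctsa, a carboxypeptidase that also protects neuraminidase 1 and beta-galactosidase, had 94.3, 109, 114, 109.6 and 105 CPM in fasted Plin2-null livers, against 86.8, 103, 97.8, 73.7 and 77.7 CPM in fed ones. In Plin2+/+ livers Ctsa had 90.6, 99.2, 103, 108 and 111 CPM fasted, against 78.7, 90.6, 100.1, 93.0 and 98.9 CPM fed. The libraries overlapped in both genotypes. Ctsa was called in Plin2-null (0.28 ± 0.10, edgeR adjusted p = 0.0343) and not in Plin2+/+ livers (0.15 ± 0.10, adjusted p = 0.234), and the difference between the genotypes was not called (interaction 0.13 ± 0.14, adjusted p = 0.696). On TPM its change in Plin2-null livers was -0.0094, and the call was also lost in 7 of 10 fits without 1 library of these groups (edgeR adjusted p up to 0.104). Pltp, which overlaps Ctsa on the other strand, held counts equal to 32.2% of those of Ctsa. Pltp changed by 0.23 in Plin2-null livers (not called) and fell in Plin2+/+ livers (log2 -0.66, edgeR adjusted p = 0.0382). Its part in the values of Ctsa was not tested.

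Ctsb and Ctsc fell. Ctsb, cathepsin B, a cysteine protease, had 340.5, 464, 405, 344 and 374 CPM in fasted Plin2-null livers, against 492, 532, 555, 478 and 474 CPM in fed ones. In Plin2+/+ livers Ctsb had 320.0, 397, 292, 415 and 302 CPM fasted, against 499, 500.2, 615, 638 and 515 CPM fed. All fasted libraries were below all fed ones in each genotype, with log2 changes of -0.39 ± 0.12 and -0.68 ± 0.12 (SE, edgeR adjusted p = 0.0136 in Plin2-null and 9.79e-05 in Plin2+/+). Fdft1, squalene synthase, overlaps Ctsb on the other strand, held counts equal to 19.1% of those of Ctsb and fell, with log2 changes of -2.93 in Plin2-null and -3.56 in Plin2+/+ livers. Its part in the fall of Ctsb was not tested.

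Ctsc encodes cathepsin C, the dipeptidyl peptidase that activates the serine proteases of leukocytes. It had 79.9, 92.7, 85.3, 75.4 and 77.2 CPM in fasted Plin2-null livers, against 122, 132, 158, 171 and 116 CPM in fed ones. In Plin2+/+ mice Ctsc had 93.3, 95.1, 49.7, 79.1 and 72.8 CPM after fasting, against 148, 134, 144, 134 and 122 CPM when fed. The feeding states did not overlap, and Ctsc fell 1.70-fold in Plin2-null and 1.75-fold in Plin2+/+ livers (log2 -0.77 ± 0.14 and -0.81 ± 0.14, edgeR adjusted p = 0.000206 and 9.27e-05). Ctss, a cysteine protease of antigen-presenting cells, had changes of -0.18 ± 0.15 and -0.34 ± 0.15 that did not pass the test, and Ctsh, an aminopeptidase, of 0.03 ± 0.11 and -0.04 ± 0.11. Without replicate 2 of the Plin2+/+ fasted group Ctss was called lower there (-0.46, edgeR adjusted p = 0.0195).

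Macrophage markers moved the same way as Ctsc. The list of Kupffer cell and macrophage genes has 13 members. Of these 7 fell in Plin2-null and 10 in Plin2+/+ livers, against 18.1% and 21.7% of all genes, and none rose. Without 1 library 5 to 9 fell in Plin2-null and 7 to 10 in Plin2+/+ livers, and 1 rose without replicate 2 of the Plin2-null fed group. Their summed TPM ran from 398 to 677 in Plin2-null fasted, 539 to 1362 in Plin2-null fed, 336 to 482 in Plin2+/+ fasted and 649 to 758 in Plin2+/+ fed livers. None of the 13 was at 0 in any library. Folr2, Fcgr1, Timd4, Cd5l, Vsig4, Adgre1 and Cd68 fell in Plin2-null livers, and Folr2, Fcgr1, Cd5l, Cd68, Csf1r, Timd4, Clec4f, C1qc, Vsig4 and C1qa in Plin2+/+ livers. C1qb and Marco fell in neither. The log2 changes of Folr2, a folate receptor of resident macrophages, were -1.61 ± 0.19 in Plin2-null and -1.62 ± 0.19 in Plin2+/+ livers, and those of Clec4f, a lectin of Kupffer cells, -0.29 ± 0.14 (not called) and -0.45 ± 0.14. Their part in the changes of Ctsc, Ctsb and the other lysosomal genes was not tested.

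Markers of the other cells of the liver moved as follows after fasting. Of all genes 18.0% rose and 18.1% fell in Plin2-null, and 20.9% rose and 21.7% fell in Plin2+/+ livers. Of 8 neutrophil and monocyte markers 3 rose and 1 fell in Plin2-null and 3 rose and 2 fell in Plin2+/+ livers. Their summed TPM went the other way, averaging 126 ± 34.5 in fasted and 218 ± 89.7 in fed Plin2-null livers (SD, n = 5 each). In Plin2+/+ livers it averaged 116 ± 21.9 fasted and 167 ± 20.6 fed. None of the dendritic, stellate, cholangiocyte, lymphocyte and pancreatic acinar markers rose. The counts that fell were, in Plin2-null and Plin2+/+ livers, 1 and 3 of 4 dendritic, 2 and 3 of 5 stellate, 1 and 3 of 5 tested cholangiocyte, 0 and 3 of 7 lymphocyte, and 2 and 2 of 2 tested acinar markers. Of 7 sinusoidal endothelial markers 2 rose and 2 fell in Plin2-null and 2 rose and 4 fell in Plin2+/+ livers. Of the 6 hepatocyte markers none rose and 1 fell in Plin2-null and 2 rose and 1 fell in Plin2+/+ livers. The summed TPM of the hepatocyte markers ran from 68039.9 to 95856 in Plin2-null fasted, 92187 to 120218 in Plin2-null fed, 96651 to 118954 in Plin2+/+ fasted and 96608 to 152286 in Plin2+/+ fed livers. The summed level of each of the other marker lists, the macrophage list apart, was at most 319 TPM in any library. At 0 in some of the 20 libraries were the acinar markers Cpa1 and Pnlip (18 each) and Cela2a (1), the monocyte marker Chil3 (1) and the cholangiocyte marker Cftr (1). The part of these cells in the results was not tested.

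**Figure D4:**
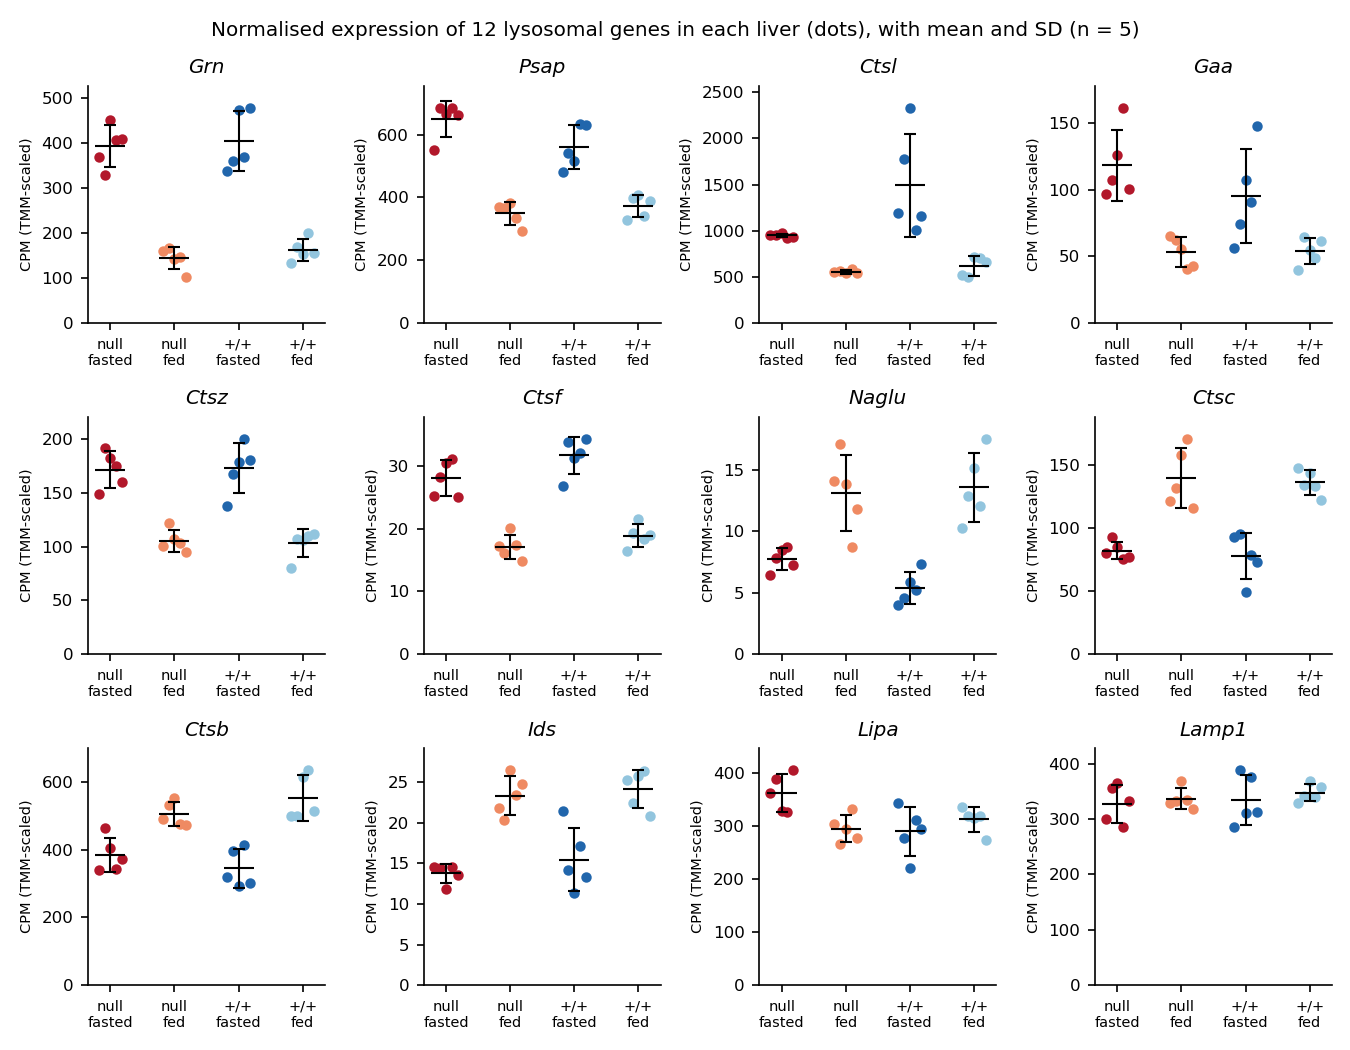
CPM of 12 of the genes in every liver, 1 dot per library, with the mean and SD of each group of 5 and every axis starting at 0. Grn, Psap, Ctsl, Ctsz and Ctsf lie higher in the fasted than in the fed group of each genotype, Naglu, Ctsc and Ctsb lower, and Lamp1 shows no such gap.

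The glycosidases, which take sugars off glycogen, glycoproteins, glycolipids and glycosaminoglycans, split evenly, with 3 higher and 3 lower of 10 in Plin2-null livers and 3 higher and 4 lower in Plin2+/+ livers. On TPM 1 rose and 3 fell in Plin2-null, and 2 rose and 4 fell in Plin2+/+ livers. Without replicate 3 of the fasted or 5 of the fed group 2 fell in Plin2+/+ livers. Gaa, acid alpha-glucosidase, the lysosomal enzyme that degrades glycogen, averaged 118 ± 26.6 CPM in fasted and 53.2 ± 11.2 CPM in fed Plin2-null livers (SD, n = 5 each). In Plin2+/+ livers it averaged 95.1 ± 34.9 CPM fasted and 53.8 ± 9.78 CPM fed (SD, n = 5 each), with overlap between the states there. The log2 changes of Gaa were 1.15 ± 0.21 and 0.82 ± 0.21 (SE, edgeR adjusted p = 0.000276 in Plin2-null and 0.00393 in Plin2+/+). On log2(TPM + 1) the rise in Plin2+/+ livers did not pass (adjusted p = 0.111 without a filter on low values).

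Idua encodes alpha-L-iduronidase, which cleaves dermatan and heparan sulfate. Idua had 8.88, 6.95, 6.76, 8.44 and 7.70 CPM in fasted Plin2-null livers, against 4.03, 4.67, 5.01, 5.02 and 4.09 CPM in fed ones. In Plin2+/+ livers it had 7.55, 7.33, 7.26, 5.40 and 8.21 CPM fasted, against 3.80, 3.26, 4.02, 4.49 and 4.30 CPM fed. No library overlapped, and the log2 changes were 0.76 ± 0.13 and 0.85 ± 0.13 (SE, edgeR adjusted p = 8.7e-05 in Plin2-null and 1.94e-05 in Plin2+/+). On TPM the Idua call in Plin2-null livers was lost. This gene is uncertain: Slc26a1, an anion transporter on the opposite strand of the same locus, held 2292% of the counts of Idua, and the sources used here do not state whether counting used strand. Slc26a1 itself fell, with log2 changes of -0.42 in Plin2-null and -0.46 in Plin2+/+ livers. Hexa, the alpha subunit of beta-hexosaminidase, averaged 42.0 ± 7.30 CPM in fasted and 32.4 ± 4.48 CPM in fed Plin2-null livers, and 49.2 ± 5.66 CPM fasted and 32.2 ± 3.66 CPM fed in Plin2+/+ livers (SD, n = 5 each). It rose in both genotypes, by 0.38 ± 0.12 and 0.61 ± 0.12 (log2, SE). In Plin2-null livers the Hexa call was lost on TPM and without replicate 2 or 4 of the fasted or 1 or 5 of the fed group (edgeR adjusted p up to 0.0682).

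Naglu fell most of the 35 genes in Plin2+/+ livers. It encodes alpha-N-acetylglucosaminidase, an enzyme of heparan sulfate breakdown, on chromosome 11 from 101070012 to 101077672 (plus strand). Naglu had 6.44, 7.83, 8.51, 8.69 and 7.24 CPM in fasted Plin2-null livers, against 14.1, 17.1, 13.8, 8.76 and 11.8 CPM in fed ones. In Plin2+/+ livers Naglu had 3.96, 4.53, 5.87, 5.19 and 7.33 CPM fasted, against 10.2, 12.8, 15.2, 12.0 and 17.6 CPM fed. Every fasted library was below every fed one within each genotype. The log2 change was -0.76 ± 0.18 (SE, edgeR adjusted p = 0.00206) in Plin2-null and -1.34 ± 0.18 (adjusted p = 4.62e-06) in Plin2+/+ livers, 1.70-fold and 2.53-fold lower after fasting.

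Glb1, beta-galactosidase, had 8.61, 8.61, 10.6, 7.71 and 9.00 CPM in fasted Plin2-null livers, against 12.4, 13.4, 12.8, 10.9 and 9.60 CPM in fed ones. In Plin2+/+ livers Glb1 had 8.02, 9.47, 8.32, 9.39 and 8.16 CPM fasted, against 11.7, 12.9, 12.6, 13.4 and 14.2 CPM fed. The states overlapped in Plin2-null and not in Plin2+/+ livers, and Glb1 fell in both (-0.41 ± 0.11 and -0.58 ± 0.11, log2 with SE, edgeR adjusted p = 0.00554 and 0.000192). Tmppe lies within the same locus on the same strand, with counts equal to 32.8% of those of Glb1, so reads of these genes may not be told apart. Tmppe itself changed by -0.08 in Plin2-null livers (not called) and -0.47 in Plin2+/+ livers (log2, edgeR adjusted p = 0.0454). Its part in the fall of Glb1 was not tested. Gla, alpha-galactosidase A, fell too, with log2 changes of -0.48 ± 0.17 in Plin2-null and -0.51 ± 0.17 in Plin2+/+ livers (SE, edgeR adjusted p = 0.032 and 0.019). The Gla call was lost without replicate 4 or 5 of the fasted or replicate 2 or 4 of the fed Plin2-null group, and without replicate 3 or 5 of the fasted or replicate 5 of the fed Plin2+/+ group, with edgeR adjusted p of at most 0.0926 in Plin2-null and 0.0592 in Plin2+/+ livers.

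Man2b1, acid alpha-mannosidase, had 84.8, 91.96, 103, 101 and 87.8 CPM in fasted Plin2-null livers, against 95.1, 103, 103, 84.0 and 80.9 CPM in fed ones. In Plin2+/+ livers Man2b1 had 73.3, 89.1, 74.7, 82.0 and 88.4 CPM fasted, against 91.1, 94.4, 107, 97.2 and 98.2 CPM fed. The states overlapped throughout in Plin2-null livers and were apart in Plin2+/+ livers. The change in Plin2+/+ livers was called (-0.26 ± 0.09, edgeR adjusted p = 0.029) and that in Plin2-null livers was not (0.01 ± 0.09), and the difference between the genotypes was not (0.27 ± 0.13, adjusted p = 0.365). Without replicate 1 or 3 of the fasted or 3 or 5 of the fed Plin2+/+ group the Man2b1 call was lost (edgeR adjusted p up to 0.0793). Gusb, beta-glucuronidase, changed by 0.10 ± 0.11 and 0.15 ± 0.11, Manba, beta-mannosidase, by -0.14 ± 0.10 and -0.17 ± 0.10, and Neu1, neuraminidase 1, by 0.07 ± 0.13 and -0.03 ± 0.13, none of which passed the test.

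Of the 3 sulfatases 2 fell in each genotype, also on TPM and with library size alone. Under both of these scalings falls also outnumbered rises over all genes. With library size alone 4243 of 16312 genes fell in Plin2-null and 4173 in Plin2+/+ livers, against 1376 and 1854 that rose. Ids, iduronate 2-sulfatase, which acts before alpha-L-iduronidase on the same glycosaminoglycans, had 14.6, 14.4, 11.8, 14.5 and 13.6 CPM in fasted Plin2-null livers, against 21.9, 20.3, 26.6, 23.4 and 24.8 CPM in fed ones. In Plin2+/+ livers Ids had 21.4, 14.2, 11.4, 17.1 and 13.3 CPM fasted, against 25.3, 22.5, 25.8, 26.4 and 20.9 CPM fed. Libraries overlapped only in Plin2+/+, where replicate 1 of the fasted group lay above 1 fed library. The log2 changes of Ids were -0.76 ± 0.13 and -0.64 ± 0.13 (SE, edgeR adjusted p = 0.00012 in Plin2-null and 0.000493 in Plin2+/+).

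Arsb, arylsulfatase B, which acts on dermatan sulfate, had 17.5, 18.7, 20.8, 17.3 and 21.7 CPM in fasted Plin2-null livers, against 25.6, 31.6, 28.1, 25.1 and 22.2 CPM in fed ones. In Plin2+/+ livers Arsb had 20.0, 18.8, 15.1, 19.4 and 18.9 CPM fasted, against 25.1, 28.3, 28.8, 34.0 and 26.9 CPM fed. The states were apart in both genotypes, with log2 changes of -0.47 ± 0.11 and -0.63 ± 0.11 (SE, edgeR adjusted p = 0.0019 in Plin2-null and 7.72e-05 in Plin2+/+). Arsa, arylsulfatase A, which desulfates sulfatide, averaged 15.6 ± 2.72 CPM fasted and 13.4 ± 2.86 CPM fed in Plin2-null livers, and 14.2 ± 3.97 CPM fasted and 14.1 ± 3.91 CPM fed in Plin2+/+ livers (SD, n = 5 each), with no call.

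Among the 7 lipid hydrolases and activators 4 rose and 2 fell in Plin2-null livers, and 3 rose and 2 fell in Plin2+/+ livers. On TPM 2 rose (Grn and Psap, neither of them a hydrolase) and 2 fell in each genotype. Without replicate 1 of the Plin2-null fed group 2 rose in Plin2-null livers, and without replicate 3 or 5 of the fasted or 4 of the fed group 1 fell in Plin2+/+ livers. Grn, progranulin, a secreted glycoprotein that is processed into granulins in the lysosome, rose most of the 35 genes. It lies on chromosome 11 from 102430315 to 102437048 (plus strand). Grn had 368, 329, 451, 405 and 408 CPM in fasted Plin2-null livers, against 161, 167, 142, 146 and 103 CPM in fed ones. In Plin2+/+ livers Grn had 338, 360.2, 472, 369 and 478 CPM fasted, against 132, 169.8, 154, 201 and 155 CPM fed. The lowest fasted library was above the highest fed one in each genotype. Grn rose 2.73-fold in Plin2-null (log2 1.45 ± 0.14 SE, edgeR adjusted p = 7.32e-08) and 2.49-fold in Plin2+/+ livers (1.31 ± 0.14, adjusted p = 1.95e-07).

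Psap had 550.1, 685, 667, 686 and 662 CPM in fasted Plin2-null livers, against 370.1, 366, 382, 334 and 293 CPM in fed ones. In Plin2+/+ livers Psap had 482, 540.0, 516, 633 and 631 CPM fasted, against 328, 398, 409, 340.2 and 389 CPM fed. Fasted and fed libraries did not overlap. The log2 changes were 0.90 ± 0.11 (SE, edgeR adjusted p = 1.34e-06) in Plin2-null and 0.59 ± 0.11 (adjusted p = 0.000151) in Plin2+/+ livers. Galc, galactosylceramidase, which uses a saposin, rose at its low level, with log2 changes of 0.38 ± 0.12 and 0.60 ± 0.12. The Galc call was lost on TPM in both genotypes, and in Plin2-null livers without replicate 3 of the fasted or 1 of the fed group (edgeR adjusted p = 0.0572 and 0.0513).

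Lipa encodes lysosomal acid lipase, the enzyme that hydrolyses cholesteryl esters and triglycerides delivered to the lysosome. Lipa had 363, 389, 329, 326 and 407 CPM in fasted Plin2-null livers, against 304, 266, 294, 332 and 278 CPM in fed ones. In Plin2+/+ livers Lipa had 344, 278, 220.2, 312 and 296 CPM fasted, against 336, 318, 316, 319 and 274 CPM fed. The states overlapped in both genotypes, by 1 fed library with a value above 2 of the fasted ones in Plin2-null. Lipa was called in Plin2-null (0.30 ± 0.11, edgeR adjusted p = 0.0383) and not in Plin2+/+ livers (-0.11 ± 0.11, adjusted p = 0.453). Its interaction had the smallest p of the 35 genes and was not called (0.41 ± 0.16, edgeR adjusted p = 0.286). Of 21 alternatives 9 kept the Lipa call in Plin2-null livers, with adjusted p from 0.00395 to 1, and 7 of the 10 fits without 1 library lost it (edgeR adjusted p up to 0.1).

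Asah1, acid ceramidase, had 36.9, 39.0, 35.5, 32.6 and 32.0 CPM in fasted Plin2-null livers, against 43.2, 54.1, 49.2, 54.5 and 46.5 CPM in fed ones. In Plin2+/+ livers Asah1 had 33.5, 41.8, 31.4, 38.3 and 32.6 CPM fasted, against 42.7, 42.5, 50.1, 49.4 and 43.6 CPM fed. The fasted libraries were all below the fed ones, and the log2 changes were -0.49 ± 0.10 and -0.36 ± 0.10 (SE, edgeR adjusted p = 0.000419 in Plin2-null and 0.0046 in Plin2+/+). Ppt1, palmitoyl-protein thioesterase 1, which removes fatty acids from proteins, fell, with log2 changes of -0.38 ± 0.11 in Plin2-null and -0.33 ± 0.11 in Plin2+/+ livers. Cap1 overlaps Ppt1 on the other strand with 370% of its counts, so the Ppt1 values are uncertain. Cap1 itself changed by 0.14 on the log2 scale in each genotype and was not called. Without replicate 3 or 5 of the fasted or 4 of the fed Plin2+/+ group the Ppt1 call was lost there (edgeR adjusted p up to 0.069). Smpd1, acid sphingomyelinase, changed by 0.25 ± 0.14 in Plin2-null livers, which did not pass the test, and averaged 28.9 ± 5.60 CPM fasted and 28.9 ± 2.41 CPM fed in Plin2+/+ livers (SD, n = 5 each).

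Of the 5 membrane proteins 1 rose in Plin2-null and 2 rose in Plin2+/+ livers and none fell, but with library size alone and on TPM 2 fell and none rose in Plin2-null and none was called in Plin2+/+ livers. Scarb2, LIMP2, the receptor that carries glucocerebrosidase to the lysosome, averaged 276 ± 16.4 CPM in fasted and 209.5 ± 28.7 CPM in fed Plin2-null livers, and 301 ± 57.4 CPM fasted and 219 ± 26.4 CPM fed in Plin2+/+ livers (SD, n = 5 each). Its log2 changes were 0.40 ± 0.12 and 0.46 ± 0.12 (SE, edgeR adjusted p = 0.0158 in Plin2-null and 0.00509 in Plin2+/+), and were not called on TPM in either genotype. Lamp2, a major protein of the lysosomal membrane needed for autophagy, had 705, 790.4, 760.4, 647 and 619.9 CPM in fasted Plin2-null livers, against 606, 585, 601, 704 and 566 CPM in fed ones. In Plin2+/+ livers Lamp2 had 794, 925, 749.7, 786 and 681 CPM fasted, against 625, 573, 651, 638 and 577 CPM fed. The states were apart in Plin2+/+ and overlapped in Plin2-null livers, through replicate 4 of the fed group. Lamp2 was called in Plin2+/+ (0.36 ± 0.10, edgeR adjusted p = 0.00647) and not in Plin2-null livers (0.20 ± 0.10, adjusted p = 0.125), and the difference was not called (interaction -0.16 ± 0.14, adjusted p = 0.615). On TPM the Lamp2 call was lost. Lamp1, the other main membrane glycoprotein, averaged 328 ± 34.3 CPM fasted and 337 ± 19.2 CPM fed in Plin2-null livers, and 334 ± 44.9 CPM fasted and 347 ± 15.3 CPM fed in Plin2+/+ livers (SD, n = 5 each). Its log2 differences of -0.04 ± 0.10 and -0.05 ± 0.10 (SE) did not pass the test. Cd63, a tetraspanin, changed by 0.31 ± 0.20 and -0.20 ± 0.20, and Mcoln1, the calcium channel TRPML1, by -0.19 ± 0.10 and 0.02 ± 0.10, with no call.

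The next question was whether these genes differed between Plin2-null and Plin2+/+ livers within a feeding state. In fasted mice 1 of the 35 genes was called lower and none higher in Plin2-null livers by edgeR, where 3.24% of all genes were called, 1.73% lower and 1.51% higher. That background of 528 genes (246 higher, 282 lower) rests on single libraries: it was 10 and 5 without replicate 5 of the Plin2-null group and 9 and 4 without replicate 2 of the Plin2+/+ group. It was 42 to 112 higher and 42 to 98 lower without replicate 1 or 3 of either group, 433 and 530 without replicate 4 of the Plin2+/+ group, and 1033 and 761 without its replicate 5. At an unadjusted p under 0.05 there were 8 of the 35 and 3962 of all 16312. DESeq2 called 1 of the 35 higher and 2 lower, where it called 630 higher and 803 lower of all 16312 genes. The called gene was Ctsl, with a mean of 948 ± 19.6 CPM in Plin2-null fasted and 1491 ± 555 CPM in Plin2+/+ fasted livers (SD, n = 5 each). All 5 Plin2-null libraries were below all 5 Plin2+/+ libraries, as was also the case for Tpp1, so 2 genes did not overlap in this direction, against 2.21% of all genes, and none in the other, against 1.87%. The log2 difference of Ctsl was -0.65 ± 0.17 (SE, edgeR adjusted p = 0.0438). The call was kept in 6 of 21 alternatives, with adjusted p from 0.00811 to 0.269 and log2 differences from -0.77 to -0.44. The call was lost without any of the 5 Plin2-null fasted libraries and without replicate 1, 2 or 3 of the Plin2+/+ fasted group. Without replicate 3 of the Plin2+/+ fasted group, which held the highest Ctsl value, the difference was -0.44 (edgeR adjusted p = 0.116).

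Of the other genes in fasted mice, Tpp1 averaged 90.7 ± 3.40 CPM in Plin2-null and 107 ± 7.60 CPM in Plin2+/+ livers (SD, n = 5 each), a log2 difference of -0.24 ± 0.08 (edgeR adjusted p = 0.0743). Naglu averaged 7.74 ± 0.929 CPM in Plin2-null and 5.37 ± 1.31 CPM in Plin2+/+ livers, a difference of 0.53 ± 0.18 (adjusted p = 0.0924, edgeR) that was called without replicate 5 of the Plin2+/+ group (0.67, adjusted p = 0.026). Lipa averaged 363 ± 35.8 CPM in Plin2-null and 290.0 ± 46.1 CPM in Plin2+/+ livers, a difference of 0.32 ± 0.11 (adjusted p = 0.0901, edgeR). Mcoln1 differed by -0.26 ± 0.10, Galc by -0.27 ± 0.12, Cd63 by 0.52 ± 0.21 and Man2b1 by 0.20 ± 0.09. These 7 had an unadjusted p under 0.05 and did not pass the correction. The median difference over the 35 genes was 0.04, and 0.02 over all genes.

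Cell type markers also differed between the genotypes in fasted mice. The summed TPM of the 6 hepatocyte markers, 68039.9 to 95856 in Plin2-null and 96651 to 118954 in Plin2+/+ livers, did not overlap, and Cps1 was called lower (-0.97 ± 0.23, edgeR adjusted p = 0.0318). Of 8 neutrophil and monocyte markers 2 were called higher, S100a9 (1.42 ± 0.23, edgeR adjusted p = 0.00494) and S100a8 (1.29 ± 0.32, adjusted p = 0.0334), against 1.51% of all genes. The summed TPM of the 8, 68.3 to 156 in Plin2-null and 90.6 to 146 in Plin2+/+ livers, overlapped. The S100a9 call was kept in all 10 fits without 1 library, and those of S100a8 and Cps1 in 4 and 5 of them. Des, of 5 stellate markers (0.67 ± 0.17), and Ms4a1, of 7 lymphocyte markers (1.44 ± 0.38), were higher and kept in 4 fits each. None of the 13 macrophage markers was called, and their summed TPM, 398 to 677 in Plin2-null and 336 to 482 in Plin2+/+ livers, overlapped. No dendritic, sinusoidal, cholangiocyte or acinar marker was called. The part of these cells in the differences between genotypes was not tested.

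In fed mice no gene of the 35 was called between genotypes by edgeR, DESeq2 or limma voom, and none had an unadjusted p under 0.05. Over all genes edgeR called 0.0184%, 0.0123% higher and 0.00613% lower in Plin2-null livers. The largest differences were those of Idua (0.20 ± 0.13, log2, SE), Ctsd (-0.18 ± 0.11) and Grn (-0.17 ± 0.14). The interaction (the effect of genotype in the fasted state less its effect in the fed state) was called for none of the 35 genes by edgeR, DESeq2 or limma voom, where edgeR called 0% of all genes, DESeq2 called 37 higher and 26 lower, and limma voom 1 and 1. At an unadjusted p under 0.05 there were 2 of the 35, Lipa and Naglu, and 2250 of all genes. Naglu had an interaction of 0.58 ± 0.25 (edgeR adjusted p = 0.326). A miss of the threshold does not show that the genotypes respond alike: for Ctsl the interaction was -0.49 ± 0.24 and for Psap 0.31 ± 0.15.

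The genes that build and run lysosomes were counted by list, beside 18.0% higher and 18.1% lower of all genes in Plin2-null and 20.9% and 21.7% in Plin2+/+ livers. List counts on TPM have another background: 1014 higher and 4566 lower of 15996 genes in Plin2-null, and 1567 and 3623 in Plin2+/+ livers. Of 16 V-ATPase genes 11 rose and none fell in Plin2-null livers and 9 rose and 1 fell in Plin2+/+ livers, but on TPM none rose and 2 fell in Plin2-null and 5 rose and 1 fell in Plin2+/+ livers. The V-ATPase gene that fell, Atp6v1g1, was not called without replicate 1, 2 or 3 of the fasted or 2, 4 or 5 of the fed Plin2+/+ group. Atp6v1c1, a subunit of the cytosolic sector, averaged 33.0 ± 3.28 CPM in fasted and 21.5 ± 1.402 CPM in fed Plin2-null livers, and 36.3 ± 1.89 CPM fasted and 23.2 ± 1.86 CPM fed in Plin2+/+ livers (SD, n = 5 each). Its log2 changes were 0.62 ± 0.09 and 0.65 ± 0.09 (SE, edgeR adjusted p = 7.82e-06 in Plin2-null and 3.41e-06 in Plin2+/+). Other V-ATPase genes rose under TMM in Plin2-null and in Plin2+/+ livers, among them Atp6v1e1 (0.55 ± 0.09 and 0.66 ± 0.09), Atp6v0e (0.52 ± 0.09 and 0.39 ± 0.09), Atp6v1h (0.61 ± 0.11 and 0.60 ± 0.11) and Atp6ap2 (0.42 ± 0.10 and 0.54 ± 0.10). Atp6v1b2 rose in Plin2+/+ livers (0.64 ± 0.11) and was not called in Plin2-null livers (0.27 ± 0.11).

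Of 25 other hydrolases and activators 2 rose and 2 fell in Plin2-null and 5 rose and 5 fell in Plin2+/+ livers. On TPM none rose and 10 fell in Plin2-null and 1 rose and 8 fell in Plin2+/+ livers. The number that fell in Plin2-null livers was 1 without replicate 3 or 5 of the fasted or 2 or 4 of the fed group and 4 without replicate 5 of the fed group, and 3 rose in Plin2+/+ livers without replicate 3 of the fasted group. Gm2a, the activator of GM2 ganglioside breakdown, averaged 41.3 ± 5.97 CPM in fasted and 91.6 ± 8.89 CPM in fed Plin2-null livers, and 39.2 ± 8.10 CPM fasted and 104 ± 31.8 CPM fed in Plin2+/+ livers (SD, n = 5 each). Gm2a fell, with log2 changes of -1.15 ± 0.17 and -1.41 ± 0.17 (SE). In Plin2-null livers Plbd2 rose (0.55 ± 0.15). In Plin2+/+ livers Pla2g15, a lysosomal phospholipase, (-0.95 ± 0.15) and Npc2, which binds cholesterol in the lysosome, (-0.45 ± 0.10) fell. In fasted mice 1 of the 25 was called higher and 1 lower in Plin2-null livers, against 1.51% and 1.73% of all genes, and the lower gene is not named here. The higher gene was Pla2g15 (10.8 ± 0.767 CPM, against 6.49 ± 1.24 CPM in Plin2+/+ livers, SD, n = 5 each). It differed by 0.74 ± 0.15 (edgeR adjusted p = 0.0139), a call lost without replicate 5 of the Plin2-null or 2 of the Plin2+/+ group (adjusted p up to 0.0558).

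Of 24 other membrane proteins and transporters 7 rose and 3 fell in Plin2-null and 6 rose and 4 fell in Plin2+/+ livers. On TPM 1 rose and 9 fell in Plin2-null and 3 rose and 4 fell in Plin2+/+ livers. Without 1 library 5 to 7 rose and 2 to 4 fell in Plin2-null and 4 to 8 rose and 4 to 5 fell in Plin2+/+ livers. Npc1, which exports cholesterol from the lysosome, averaged 188 ± 21.9 CPM in fasted and 91.1 ± 14.1 CPM in fed Plin2-null livers, and 247 ± 35.7 CPM fasted and 88.2 ± 25.0 CPM fed in Plin2+/+ livers (SD, n = 5 each). It rose by 1.05 ± 0.15 and 1.49 ± 0.16 on the log2 scale (SE). Slc36a1, a proton-coupled amino acid transporter, fell, with log2 changes of -1.44 ± 0.14 and -1.45 ± 0.14. Lmbrd1, which serves cobalamin export, rose by 0.54 ± 0.08 and 0.67 ± 0.08, and Tmem106b by 0.59 ± 0.13 and 0.93 ± 0.13. Between genotypes in fasted mice, Ctns, the cystine transporter, was lower (-0.41 ± 0.11, edgeR adjusted p = 0.0449) and Tpcn1, a cation channel, higher (0.51 ± 0.14, adjusted p = 0.0469) in Plin2-null livers. Each call was kept in 2 of 10 fits without 1 library: that of Ctns was lost without any Plin2-null library or replicate 1, 2 or 3 of the Plin2+/+ group, and that of Tpcn1 without Plin2-null replicate 1, 3, 4 or 5 or Plin2+/+ replicate 1, 2, 3 or 4 (edgeR adjusted p up to 0.118 and 0.146).

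Among 15 genes of enzyme tagging and sorting 5 rose and 3 fell in Plin2-null and 5 rose and 1 fell in Plin2+/+ livers. On TPM 1 rose and 3 fell in Plin2-null and 4 rose and 1 fell in Plin2+/+ livers. Every fit without 1 library gave fewer rises in Plin2-null livers, 2 to 4, with 2 without replicate 3 of the fasted or 1 or 5 of the fed group and 3 without replicate 2 or 5 of the fasted or 2 or 3 of the fed group. Sort1, sortilin, a sorting receptor, averaged 10.2 ± 2.65 CPM in fasted and 25.5 ± 6.46 CPM in fed Plin2-null livers, and 7.23 ± 0.798 CPM fasted and 25.8 ± 9.90 CPM fed in Plin2+/+ livers (SD, n = 5 each). Sort1 fell, with log2 changes of -1.32 ± 0.22 and -1.84 ± 0.23 (SE). Cln8, which carries lysosomal enzymes out of the endoplasmic reticulum, rose by 1.17 ± 0.16 and 1.75 ± 0.16. Vps26a, a retromer subunit, rose by 0.47 ± 0.09 and 0.57 ± 0.09, Gga3, a Golgi adaptor, fell in Plin2-null livers (-0.57 ± 0.15), and Cln6 rose in Plin2+/+ livers (1.12 ± 0.18). Between genotypes in fasted mice Cln8 averaged 46.3 ± 9.62 CPM in Plin2-null and 82.2 ± 15.6 CPM in Plin2+/+ livers (SD, n = 5 each), -0.83 ± 0.15 on the log2 scale (edgeR adjusted p = 0.013). Cln6, which acts with Cln8, differed by -0.64 ± 0.18 (adjusted p = 0.0495, edgeR). Without replicate 5 of the Plin2-null or 2 of the Plin2+/+ group the Cln8 call was lost (edgeR adjusted p up to 0.052), and the Cln6 call was lost without Plin2-null replicate 1, 2, 3 or 5 or Plin2+/+ replicate 1, 2 or 3 (up to 0.115).

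Of 18 regulators of lysosomal genes 5 rose and none fell in Plin2-null and 7 rose and 2 fell in Plin2+/+ livers. On log2(TPM + 1) none rose and 2 fell in Plin2-null and 4 rose and 3 fell in Plin2+/+ livers. In Plin2-null livers 3 rose without replicate 2 of the fasted or 1 or 5 of the fed group, and 1 fell without replicate 4 of the fasted or 5 of the fed group. In Plin2+/+ livers 1 fell without replicate 1, 2 or 3 of the fasted or 2 or 5 of the fed group. Tfeb, the factor that binds the CLEAR element, was low and was not called, with 2.82 ± 1.07 CPM in fasted and 2.60 ± 0.431 CPM in fed Plin2-null livers, and 1.97 ± 0.817 CPM fasted and 2.33 ± 0.179 CPM fed in Plin2+/+ livers (SD, n = 5 each). Tfe3, of the same family, changed by 0.05 ± 0.09 in Plin2-null, which did not pass, and rose by 0.27 ± 0.09 in Plin2+/+ livers, a call lost without replicate 3 of the fasted or 3 or 5 of the fed group (edgeR adjusted p up to 0.0656). Rragc, a small GTPase that recruits mTORC1 and TFEB to the lysosome, rose by 0.32 ± 0.08 and 0.45 ± 0.08. Ppara, a nuclear receptor of the fasting response, rose by 0.65 ± 0.19 and 0.85 ± 0.19, and Foxo1 by 0.89 ± 0.28 and 0.91 ± 0.27. Fnip1, a partner of folliculin, rose by 0.36 ± 0.13 and 1.00 ± 0.14, and Ppargc1a, a coactivator of fasting metabolism, by 1.19 ± 0.38 and 2.58 ± 0.40. In Plin2-null livers the Fnip1 call was lost without replicate 1, 2, 3 or 4 of the fasted or 1, 2 or 5 of the fed group, and the Ppargc1a call without replicate 2 of the fasted or 1 or 5 of the fed group (edgeR adjusted p up to 0.102 and 0.0705). In fasted mice Zkscan3, a repressor of autophagy and lysosomal genes, averaged 51.8 ± 7.40 CPM in Plin2-null and 80.42 ± 12.2 CPM in Plin2+/+ livers (SD, n = 5 each), a log2 difference of -0.63 ± 0.13 (edgeR adjusted p = 0.0186). Fnip1 (-0.57 ± 0.13) and Ppargc1a (-1.52 ± 0.38) were also lower there. All these calls were lost without replicate 5 of the Plin2-null or 1 or 2 of the Plin2+/+ group, and those of Fnip1 and Ppargc1a also without replicate 3 of either group and that of Ppargc1a without Plin2-null replicate 1 or 4 (edgeR adjusted p up to 0.0663 for Zkscan3, 0.0998 for Fnip1 and 0.112 for Ppargc1a). Of 4 cystatins, inhibitors of cathepsins, 2 were tested, and Cst3 rose in Plin2-null livers (0.64 ± 0.19). No gene of these lists was called between genotypes in fed mice.

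**Figure D5:**
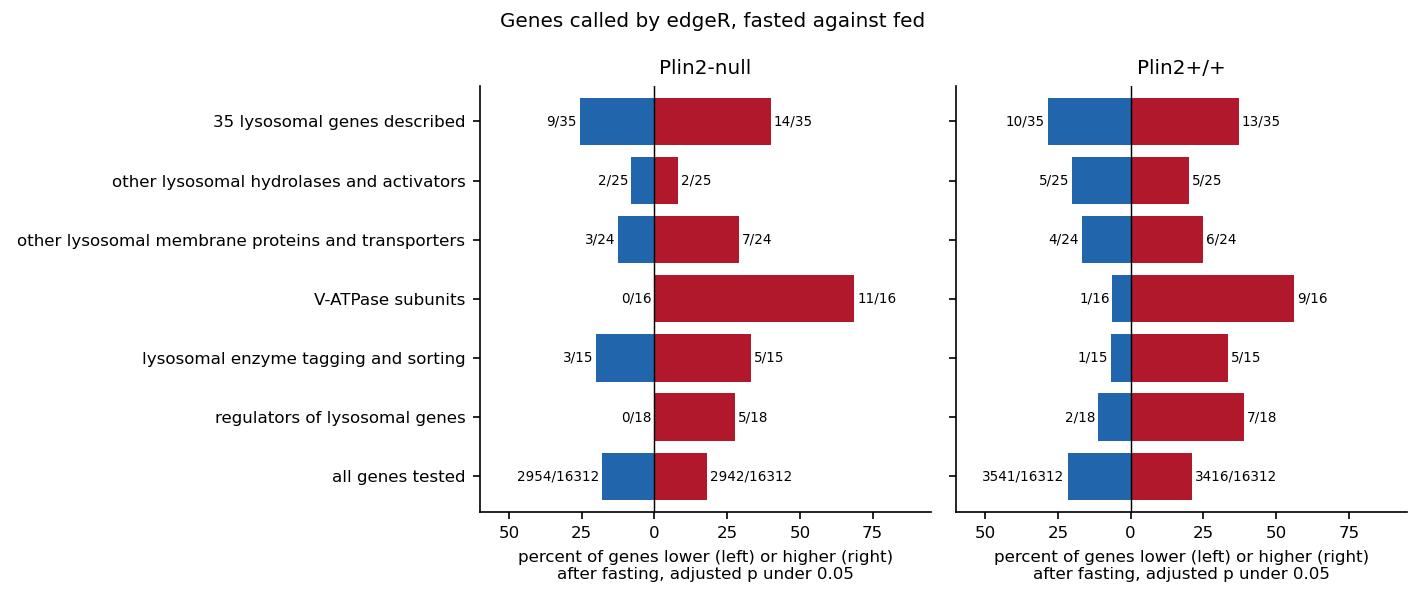
Percent of genes called lower (left) and higher (right) after fasting by edgeR, in Plin2-null (left panel) and Plin2+/+ livers (right panel), with the number called of the number tested. The 35 genes have 14 and 13 higher, the V-ATPase genes 11 and 9, against 18.0% and 20.9% of all genes, and the counts shown are those under TMM scaling.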

How the data were processed

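Whole-liver mRNA was sequenced from 20 samples in 4 groups of 5, per the labels with a NucleoSpin RNA kit and strand-specific TruSeq libraries. The authors deposited whole-number gene counts and TPM values. The submitters' processing notes name HISAT2 1.2.1 and featureCounts 1.4.6-p1, and list a human genome build although the gene identifiers are those of mouse; how strand was treated in counting and how TPM was computed are not stated in these sources. Over 7109 genes, all 20 TPM columns tracked their own count column more closely than any other. Library totals ran from 25506471 to 65579038 counts, and no 2 libraries of a group agreed within sampling noise (smallest chi-square per degree of freedom 45.3 over 40 pairs). Of 55487 count rows 55141 had a symbol.

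Counts were fitted with edgeR 4.0.16 (R 4.3.3): filterByExpr, TMM factors (0.750 to 1.15), robust quasi-likelihood fit over all 20 libraries, 5 contrasts, Benjamini-Hochberg adjustment over 16312 genes and a threshold of 0.05. SEs were taken from the F statistic. Level comparisons between genes used TPM. Alternatives used DESeq2 1.42.0, limma 3.58.1 (voom, and log2(TPM + 1) or log2(TPM + 0.1)), other size factors, other filters, the compared groups alone and each library left out. The edgeR fit was tested on simulated counts in which some genes were changed by known folds. The members and lists were chosen with earlier results of these data known. Every member is described; per-library values are given for up to 5 members called in each direction with the smallest adjusted p per comparison, for those called in 1 genotype only and for the 3 with the smallest interaction p, and from each pathway list up to 4 called genes per fasting comparison are named, apart from some that are not reported here. Other genes are named where they were called between genotypes, apart from 1 of the other hydrolases and activators, and were chosen after their values were seen. Gene positions are from GENCODE M21 (GRCm38), and promoters from RefSeq (GRCm38.p6). Figures were drawn with matplotlib 3.10.9.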

Additional observations from a re-analysis of the deposited data

Results flagged for a closer look

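In 6 of 140 groups of 5 libraries, 1 library stood apart from the other 4 by Dixon's criterion (gap over range above 0.71), where chance alone gives about 1 in 20, or 7. Psap, the saposin precursor, had 550.1 CPM in replicate 1 of the Plin2-null fasted group, below the 662 to 686 CPM of the others. Lamp2 had 704 CPM in replicate 4 of the Plin2-null fed group, above the 566 to 606 CPM of the others. In the Plin2+/+ fasted group Ctss had 50.9 CPM in replicate 2, above 34.0 to 38.5 CPM, Arsb had 15.1 CPM in replicate 3, below 18.8 to 20.0 CPM, and Cd63 had 3.56 CPM in replicate 4, above 1.96 to 2.35 CPM. Ctsz had 80.0 CPM in replicate 1 of the Plin2+/+ fed group, below 106 to 112 CPM.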

How the results depend on the processing

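No paired analysis was possible because the replicate numbers follow accession order and no label pairs the libraries. In Plin2-null livers 8 genes rose after fasting with library size alone, 6 on log2(TPM + 1), 6 on log2(TPM + 0.1) and 5 on log2(TPM + 1) with no filter, against 12, 12, 12 and 11 that fell. The median log2 fold change was then -0.022, -0.10, -0.10 and -0.10, and 0.11 with a GC trend removed, an alternative chosen after seeing the data. In Plin2+/+ livers 7, 8 and 6 genes rose on the 3 TPM scales. The median there was -0.16 with library size alone, -0.16, -0.17 and -0.16 on TPM and 0.085 with the GC trend removed. Leaving out 1 library gave 10 to 13 higher and 8 to 9 lower genes in Plin2-null (median 0.13 to 0.20) and 13 higher and 7 to 11 lower genes in Plin2+/+ livers (median -0.085 to 0.053). On the 3 TPM scales the fasting change in Plin2-null livers turned to -0.0094, -0.0097 and -0.0094 for Ctsa and to -0.037, -0.039 and -0.037 for Tpp1.

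In fasted mice DESeq2 called 1 gene higher (Lipa) and 2 lower (Ctsl, Tpp1) in Plin2-null livers, and removal of the GC trend 1 higher (Lipa) and 2 lower (Tpp1, Mcoln1). Over all 16288 genes removal of the GC trend called 189 higher and 175 lower. Limma voom, library size alone, the 3 TPM scales and the compared groups alone each called 0 lower. Leaving out 1 library gave 0 to 1 higher and 0 to 1 lower. The fed median between genotypes was 0.025 with library size alone and 0.029, 0.036 and 0.029 on TPM, and the interaction median -0.064, -0.065 and -0.064 on TPM. The cause of these shifts was not tested.

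Over all genes, the fasted genotype comparison called 630 higher and 803 lower by DESeq2, 70 and 38 with library size alone, 146 and 173 with no filter, 51 and 53 with the compared groups alone, and 11 and 16 on log2(TPM + 1), against 246 and 282 by edgeR. Without 1 library it called 9 to 1033 higher and 4 to 761 lower, the fewest without replicate 2 of the Plin2+/+ fasted group and the most without its replicate 5. After fasting, library size alone gave 1376 higher and 4243 lower in Plin2-null, and log2(TPM + 1) 1014 and 4566, against 2942 and 2954.

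Called under every alternative were 13 genes in each genotype: Ctsb, Ctsc, Ctsf, Ctsz, Glb1, Naglu, Ids, Arsb, Asah1, Psap and Grn in both, with Gaa and Ppt1 in Plin2-null and Ctsl and Idua in Plin2+/+ livers. Idua and Ppt1 overlap more abundant genes on the other strand, which depth does not resolve. The lowest count of any of the 35 genes was 75.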
